A study of Rattus norvegicus with 12 samples.

Results

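Lefty1 and 9 further genes of the TGF-beta family system were followed in the rat mammary gland: Inhba, Inhbb, Tgfb1, Tgfb2, Tgfb3, Bmp2, Bmp4, Bmp7 and the activin-binding inhibitor Fst. They were chosen by name with earlier results of these arrays known, as the probe sets that carry 1 of these 10 symbols alone, and each of the 10 symbols had a single probe set among the 29214 on the array. All 10 lay above the lowest 20% of probe sets by mean signal and so were among the 23371 that were tested. The animals were ovariectomized female Lewis rats, operated at about 10 weeks of age and treated from 14 days later. All 4 groups carried the ovariectomy and received 3 subcutaneous treatments 24 h apart in the same vehicle of DMSO and castor oil. One group received vehicle alone, a second E2 (17β-estradiol, the main ovarian estrogen) at 4 µg/kg/day, another 3-MC (3-methylcholanthrene, a polycyclic aromatic hydrocarbon that binds the aryl hydrocarbon receptor, AHR) at 15 mg/kg/day, and the last E2+3-MC at the same doses. Glands were taken 24 h after the last treatment, and the labels give the treatment time as 48 h. Each group held 3 rats with 1 array per rat, so that 12 rats limit the precision of every value.

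Ligands of the TGF-beta family are secreted dimers that bring type I and type II receptor kinases together, and the receptors phosphorylate SMAD proteins that enter the nucleus and regulate transcription. TGF-betas, activins and Nodal act mainly through SMAD2 and SMAD3, and bone morphogenetic proteins (BMPs) through SMAD1, SMAD5 and SMAD9. Lefty1 is an unusual member that blocks Nodal signalling at the receptors, and in the mammary gland the family is known for restraint of ductal growth by TGF-beta and for duct patterning by BMPs.

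The treatments were checked first, by Pgr for E2 and by AHR target genes for 3-MC. Pgr (progesterone receptor, a classical estrogen target) read 31.1 to 45.6 in the vehicle rats, 722 to 838 in the E2 rats, 27.5 to 76.6 in the 3-MC rats and 411 to 619 in the E2+3-MC rats, so both groups given E2 lay far above both groups that were not. Cyp1b1 (a cytochrome P450 induced through the AHR) read 161, 127 and 211 in vehicle rats 1 to 3, 553, 101 and 588 in the 3-MC rats, and 154, 560 and 407 in the E2+3-MC rats. Of the 6 libraries labelled with 3-MC, 4 lay above every vehicle rat in all of 4 AHR target genes (Cyp1a1, Cyp1b1, Ahrr and Nqo1), and 2, 3-MC rat 2 and E2+3-MC rat 1, lay above it in 0 of the 4. Cyp1a1 was below the filter for the test, at 21.6 in 3-MC rat 2 and 17.98 in E2+3-MC rat 1 against 10.2 to 24.0 in the vehicle rats. Differences of the 10 genes that are stated below and rest on these libraries are therefore also given without them. The glands held the markers of their main tissues on every array: Krt18 (a luminal keratin) read 841 to 2153 and Adipoq (adiponectin, from fat cells) 2765 to 4347. Because whole glands were measured, fewer cells of a type and less RNA per cell cannot be told apart.

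Lefty1 was named for its level with 3-MC alone, so its values in the 3-MC rats, and every difference that uses them, are given as a description and no p-value is read from them. Its intensity was 73.1, 78.3 and 79.5 in the vehicle rats (76.9 ± 3.39, SD, n = 3), 65.8, 51.7 and 58.4 with E2 (58.6 ± 7.06), 164, 118 and 128 with 3-MC (137 ± 24.4), and 75.4, 54.6 and 46.1 with E2+3-MC (58.7 ± 15.1). All 3 rats given 3-MC alone lay above the other 9 rats, and the E2 rats lay below every vehicle rat. The mean log2 level, taken as log2(intensity + 16) throughout, was 0.71 higher with 3-MC than with vehicle, which is 1.63-fold on this scale, and was 1.04 lower with E2+3-MC than with 3-MC. Without 3-MC rat 2 and E2+3-MC rat 1 the same differences were 0.79 and -1.28.

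The level of Lefty1 can be set beside that of Cyp1b1 in the 6 rats given 3-MC. In 3-MC rats 1 to 3, where Cyp1b1 was at 553, 101 and 588, Lefty1 was at 164, 118 and 128, so the rat with the lowest Cyp1b1 also had the lowest Lefty1 of its group. In E2+3-MC rats 1 to 3, where Cyp1b1 was at 154, 560 and 407, Lefty1 was at 75.4, 54.6 and 46.1, so there the rat with the lowest Cyp1b1 had the highest Lefty1. The highest Lefty1 value outside the 3-MC group was 79.5, in vehicle rat 3. The part of AHR activity in the Lefty1 values was not tested.

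The paper names Lefty1 as regulated by 3-MC alone, so its levels with E2 and with E2+3-MC also had a part in its choice. Comparisons without the 3-MC rats are therefore a description as well, and neither a difference nor its absence is read from them. The log2 difference of Lefty1 between E2+3-MC and E2 was -0.01 (SE 0.16). Without E2+3-MC rat 1 and 3-MC rat 2 it was -0.17. Against vehicle, Lefty1 differed by -0.32 with E2 (SE 0.16) and by -0.33 with E2+3-MC (SE 0.16). Without E2+3-MC rat 1 and 3-MC rat 2 the latter was -0.49. These 2 comparisons share the vehicle rats. Lefty2, a closely related gene, was below the filter on signal and read 19.0 to 28.3 over the 12 arrays, with no group of rats standing clear of the other three.

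**Figure D1:**
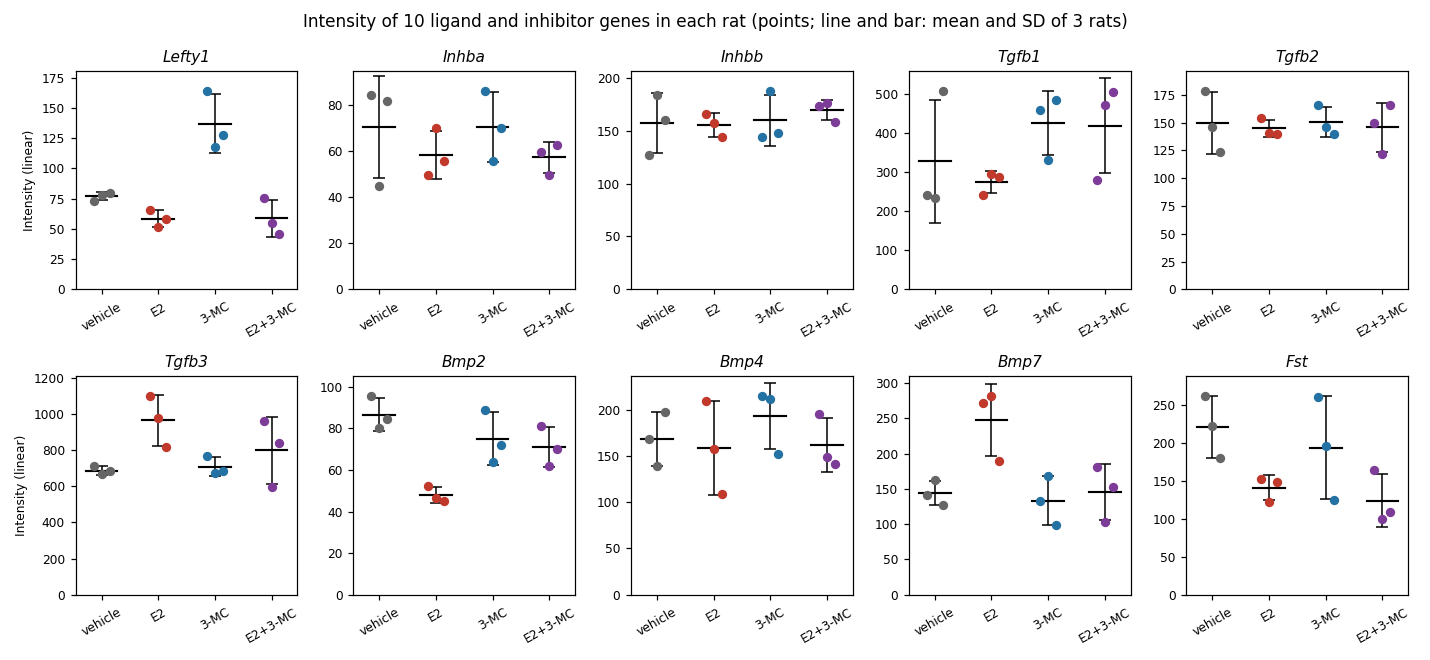
Linear array intensity (vertical axis of each panel, starting at 0) of the 10 genes in the 4 treatment groups (horizontal axis); each point is 1 rat in the order rat 1 to rat 3, the line is the mean of 3 rats and the bar the SD. Lefty1 was 118 to 164 in the 3-MC rats and at most 79.5 in the others, Bmp2 was 45.2 to 52.5 with E2 and at least 62.0 in the others, and Bmp7 was 190 to 282 with E2 and at most 181 in the others.

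Among 12419 genes with a single symbol, the 5 whose log2 values followed Lefty1 most closely over the 12 arrays were Fgf7 (Pearson r = 0.857), Mcm8 (r = 0.844), Aars1 (r = 0.838), Csgalnact1 (r = 0.830) and Gja5 (r = 0.829). These values are a description of 12 arrays that share their treatments. The 5 genes were picked for following Lefty1, which was highest in the 3-MC rats. The choice itself therefore favours genes that were high there, and their 3-MC levels are no separate result. Fgf7, a growth factor made by stromal cells, read 389 to 401 with vehicle, 287 to 337 with E2, 442 to 547 with 3-MC and 311 to 373 with E2+3-MC, and so, like Lefty1, had its 3-MC rats above all others. Aars1 shared this trait, at 341 to 378 with 3-MC, 292 to 327.5 with vehicle, 255 to 307 with E2 and 259 to 286 with E2+3-MC. Mcm8, a helicase of DNA repair, read 98.01 to 138 with vehicle and 125 to 232 with 3-MC, and these ranges overlapped. The vehicle and 3-MC ranges of Csgalnact1 and Gja5 overlapped as well.

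A call was made where the limma adjusted p was under 0.05, over all probe sets tested, and the change was at least 1.5-fold. Between E2 and vehicle 1 of the 10 genes passed, Bmp2, which fell; over all probe sets 370 passed (1.58%; 303 higher and 67 lower). The 3 rats of each group did not overlap for 5 of the 10 genes (Lefty1, Bmp2 and Fst lower, Bmp7 and Tgfb3 higher), against 18.1% of all probe sets. Over the 10 genes the median change was -0.13 on the log2 scale, and over all probe sets it was 0.02.

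Bmp2, a BMP ligand that signals through SMAD1 and SMAD5, read 95.7, 80.1 and 84.4 with vehicle (86.7 ± 8.07, SD, n = 3), 52.5, 46.7 and 45.2 with E2 (48.1 ± 3.895), 89.0, 64.0 and 72.0 with 3-MC (75.0 ± 12.7) and 81.0, 62.0 and 70.0 with E2+3-MC (71.0 ± 9.56). The E2 rats lay below all 9 others, which overlapped among themselves. Bmp2 fell by 0.68 on the log2 scale with E2 (1.60-fold, SE 0.14, adjusted p = 0.0250, lower in 3 of 3 rats than in any vehicle rat). The call was lost without vehicle rat 1 (adjusted p = 0.105) and without E2 rat 1 (0.0729), rat 2 (0.128) or rat 3 (0.0868), with log2 changes of -0.62 to -0.73, and with the unpaired test of the methods, run gene by gene (adjusted p = 0.179).

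With E2+3-MC, Bmp2 was 0.44 higher than with E2 (SE 0.14, 95% interval 0.14 to 0.73, adjusted p = 0.436), which did not pass, and its rats did not overlap those of the E2 group. Without E2+3-MC rat 1 and 3-MC rat 2 this difference was 0.36 (adjusted p = 0.411). Its interaction, the difference between the effect of E2 with 3-MC and that without, was 0.62 (SE 0.19, unadjusted p = 0.00655, adjusted p = 0.982), and 0.45 (adjusted p = 0.956) without those libraries. Markers of endothelium, a cell type that uses BMP signals, were lower in the E2 rats as well. With E2, 0 of 8 passed, against 1.58% of all probe sets. An unadjusted limma p under 0.05 was seen in 8 of 8, against 11.7% of all probe sets. The summed intensity of these markers was 4484 to 5716 with vehicle, 3338 to 3853 with E2, 4327 to 5507 with 3-MC and 3632 to 4668 with E2+3-MC. None of these markers was at 0. Of the 5 arrays with the highest Bmp2 level, 4 were among the 5 with the highest endothelial marker level, and 4 were among the 5 with the highest fibroblast marker level. The parts of endothelium and fibroblasts in the Bmp2 value were not tested.

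Bmp7, a BMP ligand made by epithelial cells of many organs, was high in the E2 group alone but its differences did not pass. It read 142, 162 and 128 with vehicle (144 ± 17.2), 272, 282 and 190 with E2 (248 ± 50.6), 132, 168 and 99.1 with 3-MC (133 ± 34.6) and 181, 102 and 152 with E2+3-MC (145 ± 39.9). The lowest E2 rat lay above each of the other 9 rats. The difference between E2 and vehicle was 0.71 (1.64-fold, SE 0.22, unadjusted p = 0.00571, adjusted p = 0.153), and between E2+3-MC and E2 it was -0.72 (SE 0.22, unadjusted p = 0.00511, adjusted p = 0.424). The latter was -0.88 (adjusted p = 0.0947) without E2+3-MC rat 1 and 3-MC rat 2, and E2+3-MC differed from vehicle by -0.01 (95% interval -0.48 to 0.45, adjusted p = 0.989), and by -0.17 (adjusted p = 0.846) without those libraries.

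Tgfb3, the TGF-beta isoform known in the gland for its part in involution, read 712, 668 and 683 with vehicle (688 ± 22.7), 1101, 979 and 818 with E2 (966 ± 142), 769, 673 and 684 with 3-MC (708 ± 52.4) and 964, 597 and 839 with E2+3-MC (800 ± 187). All 3 E2 rats lay above all vehicle and 3-MC rats, while E2+3-MC rats 1 and 3 lay within the range of the E2 rats and E2+3-MC rat 2 was the lowest of all 12. The difference between E2 and vehicle was 0.47 (SE 0.17, unadjusted p = 0.0142, adjusted p = 0.241).

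Luminal markers were higher with E2, as were Bmp7 and Tgfb3. With E2+3-MC, Bmp7 and Tgfb3 overlapped with the vehicle rats, and summed luminal intensity lay above every vehicle rat. Of the single luminal markers, Krt8, Krt18, Krt19, Krt7, Epcam, Cdh1, Elf5, Kit and Esr1 overlapped with the vehicle rats there too. Cldn3, Cldn7, Esrp1, Prlr, Foxa1 and Gata3 lay above them. With E2, 8 of 15 luminal markers passed as higher (Krt18, Cdh1, Cldn3, Cldn7, Esrp1, Prlr, Foxa1 and Gata3), against 303 of the 23371 probe sets. All 15 had a positive change, and 13 had an unadjusted limma p under 0.05, against 11.7% of all probe sets. The median log2 change was 0.77 over the 15 markers. Their summed intensity was 6826 to 7838 with vehicle, 10745 to 13602 with E2, 6839 to 9208 with 3-MC and 8108 to 10435 with E2+3-MC, and none was at 0. The median marker stood 0.88, 0.81 and 0.55 above the vehicle mean in E2 rats 1 to 3 and 0.50, 0.16 and 0.39 above it in E2+3-MC rats 1 to 3, and in both groups the rats kept the order of their Bmp7 levels except that E2 rats 1 and 2 changed places. The 5 arrays with the highest Tgfb3 were the 5 with the highest luminal level, and 4 of the 5 with the highest Bmp7 were among them. Of 8 basal and myoepithelial markers, 2 passed as higher with E2, Krt14 (561 to 1210 with E2 and at most 543 in the other rats) and Krt17 (284 to 488 and at most 199). A positive change was seen in 5 of the 8 markers, and their median change was 0.10. Their summed intensity was 7414 to 8588 with vehicle, 7627 to 9920 with E2, 6498 to 8106 with 3-MC and 6694 to 7541 with E2+3-MC, none was at 0, and 3 of the 5 arrays with the highest basal level were among the 5 highest in Bmp7 and, likewise, in Tgfb3. The part of epithelial content in these values was not tested.

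Fst, follistatin, which binds activins and some BMPs outside the cell, read 262, 222 and 181 with vehicle (222 ± 40.9), 152, 123 and 149 with E2 (141 ± 16.04), 261, 196 and 125 with 3-MC (194 ± 68.0) and 164, 99.6 and 109 with E2+3-MC (124 ± 34.7). Every rat given E2, alone or with 3-MC, lay below every vehicle rat, and 3-MC rat 3 lay among them. The difference from vehicle was -0.59 with E2 (SE 0.23, unadjusted p = 0.0251, adjusted p = 0.318) and -0.77 with E2+3-MC (1.71-fold, SE 0.23, unadjusted p = 0.00520, adjusted p = 0.380), and the latter was -0.97 (adjusted p = 0.181) without 3-MC rat 2 and E2+3-MC rat 1. The 5 arrays highest in Fst were also the 5 highest in fibroblast markers and the 5 highest in endothelial markers, and 4 of them were among the 5 highest in skeletal muscle markers. Of the fibroblast markers 0 of 11 passed with E2 (median log2 change -0.40). An unadjusted limma p under 0.05 was seen in 5 of the 11, against 11.7% of all probe sets. The summed fibroblast intensity was 16270 to 19669 with vehicle, 11393 to 14452 with E2, 16161 to 20957 with 3-MC and 11958 to 16147 with E2+3-MC, with no marker at 0, and the parts of these cell types in the Fst value were not tested.

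**Figure D2:**
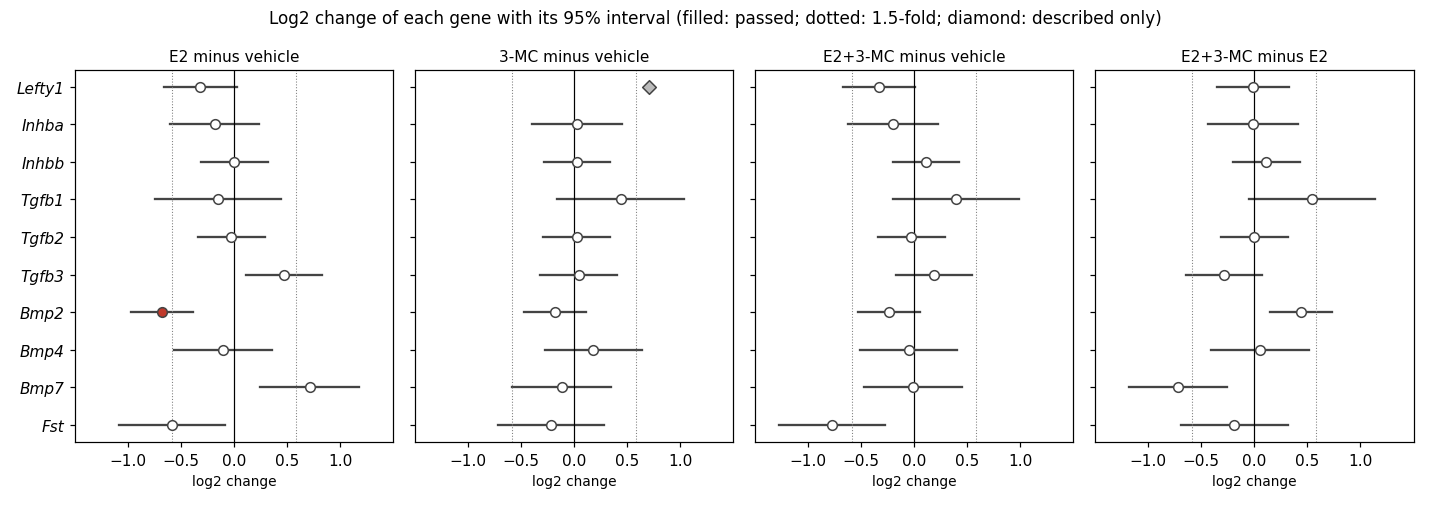
Log2 change (horizontal axis) of each of the 10 genes (vertical axis) in 4 comparisons; circles are the differences of group means of 3 rats, lines their 95% intervals from limma, dotted lines mark 1.5-fold, and the grey diamond is Lefty1 with 3-MC, which is described only. The filled circle is Bmp2 with E2 (-0.68), the only difference in these 4 panels that passed. The Lefty1 circles in the other panels are likewise a description.

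Tgfb1, the isoform made by many immune and stromal cells, spread widely within the vehicle and E2+3-MC groups. It read 241, 232 and 508 with vehicle (327 ± 157), 242, 295 and 287 with E2 (275 ± 28.7), 459, 331 and 484 with 3-MC (425 ± 82.1) and 280, 472 and 503 with E2+3-MC (418 ± 121). Vehicle rat 3 was the highest of all 12 rats, and every E2 rat lay below every 3-MC rat. Its differences were 0.43 for 3-MC against vehicle (SE 0.28, 95% interval -0.16 to 1.03, adjusted p = 0.920) and 0.54 for E2+3-MC against E2 (SE 0.28, 95% interval -0.05 to 1.14, adjusted p = 0.600). Without vehicle rat 3 the first was 0.79 (adjusted p = 0.554). Without E2+3-MC rat 1 and 3-MC rat 2 the first was 0.60 (adjusted p = 0.530) and the second 0.80 (adjusted p = 0.273).

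The 5 arrays with the highest Tgfb1 (vehicle rat 3, 3-MC rats 1 and 3, and E2+3-MC rats 2 and 3) were the 5 with the highest level of 12 myeloid markers. Of these arrays, 4 were also among the 5 with the highest level of lymphocyte markers. The median myeloid marker stood at 0.61 in vehicle rat 3 and at -0.17 and -0.40 in the other vehicle rats, at 0.79, 0.11 and 0.59 in 3-MC rats 1 to 3, and at 0.17, 0.59 and 0.75 in E2+3-MC rats 1 to 3, as log2 above the vehicle mean. Summed myeloid intensity was 5328 to 10613 with vehicle, 6185 to 7257 with E2, 7608 to 13959 with 3-MC and 8543 to 14214 with E2+3-MC, and none of the markers was at 0. Of the 12 markers, 0 passed with 3-MC and 1 with E2 (Cd14, higher), against 0% and 1.58% of all probe sets. The same 4 libraries labelled with 3-MC that were high in Tgfb1 were those with AHR targets above the vehicle rats. The parts of myeloid cells, of lymphocytes and of AHR activity in the Tgfb1 values were not tested.

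**Figure D3:**
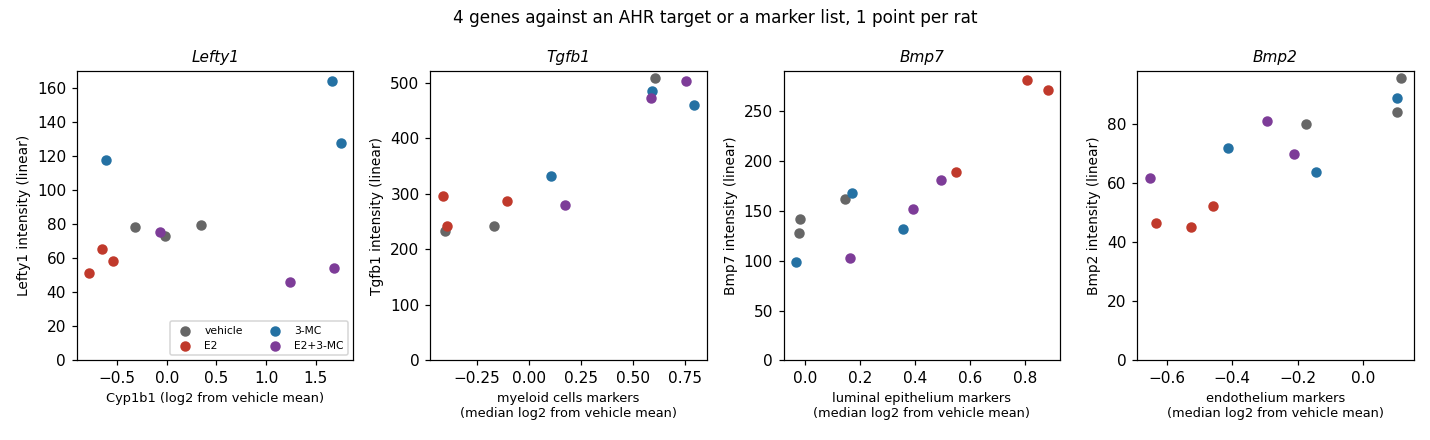
Linear intensity of 4 genes (vertical axes, from 0) against the log2 level of Cyp1b1 or the median log2 level of a marker list relative to the vehicle mean (horizontal axes), 1 point per rat coloured by group. Lefty1 was 118 in the 3-MC rat with Cyp1b1 at 101 and 54.6 in the E2+3-MC rat with Cyp1b1 at 560, and the 5 rats highest in Tgfb1 were the 5 highest in myeloid markers.

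The remaining ligands, the activin subunits Inhba and Inhbb and the ligands Tgfb2 and Bmp4, overlapped between groups in all 5 comparisons of 2 groups. Inhba, whose product dimerizes to activin A, read 84.4, 44.8 and 81.4 with vehicle, and the other 9 rats spread over 49.7 to 86.1, so that the vehicle rats alone nearly spanned the range. Inhbb, the subunit of activin B, read 127 to 184 with vehicle, 144 to 166 with E2, 144 to 188 with 3-MC and 158 to 176 with E2+3-MC. Tgfb2 read 123 to 179 with vehicle, 140 to 154 with E2, 140 to 166 with 3-MC and 122 to 166 with E2+3-MC. In each of the 5 comparisons the 95% intervals of both Inhbb and Tgfb2 lay inside a change of 1.5-fold in either direction. Bmp4, a BMP that patterns the embryonic gland, read 140 to 198 with vehicle, 109 to 210 with E2, 153 to 215 with 3-MC and 141 to 195 with E2+3-MC, and its interval did so with E2 against vehicle (-0.57 to 0.35) but not with 3-MC against vehicle (-0.28 to 0.64). Without 3-MC rat 2 and E2+3-MC rat 1, the log2 differences of these 4 genes in the comparisons that use 3-MC ran from -0.38 to 0.18.

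With 3-MC alone against vehicle, 0 of the 10 genes and 0 of all probe sets passed in limma (0%), and 991 probe sets (4.24%) had an unadjusted p under 0.05. Of the 9 genes other than Lefty1, 0 had an unadjusted p under 0.05 in limma and 0 in the unpaired test of the methods, and their log2 changes ran from -0.22 (Fst) to 0.43 (Tgfb1), or from -0.28 (Bmp7) to 0.60 (Tgfb1) without 3-MC rat 2 and E2+3-MC rat 1. The rats did not overlap for 1 gene, Lefty1, against 7.03% of probe sets, from which nothing is read, since the gene was chosen on this contrast.

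With both agents, 0 of the 10 genes passed against vehicle, where 38 probe sets did (0.163%). Of the 10, 1 (Fst) had an unadjusted p under 0.05 in limma and in the unpaired test, against 9.72% of probe sets in limma. The rats did not overlap for 1 gene, Fst, against 14.2% of probe sets. Both counts were near these shares, and nothing about the 10 genes is read from them. Against E2, 0 of the 10 genes and 0 of all probe sets passed in limma (0%); Bmp2 and Bmp7 had an unadjusted p under 0.05 in limma, Bmp2 in the unpaired test of the methods, and 2049 probe sets (8.77%) in limma. These 2 genes were also those whose rats did not overlap, a count near the 17.9% of probe sets. Both stood nearer to the vehicle mean with both agents than with E2 alone. They were also the 2 of the 10 genes with the largest changes with E2, and both comparisons use the same E2 rats. No reversal of the E2 change is therefore read from these values. Without 3-MC rat 2 and E2+3-MC rat 1, 0 of the 10 genes and 141 probe sets passed against E2, and 0 of the 10 genes and 63 probe sets against vehicle. Against 3-MC, the 1 gene that passed was Lefty1, lower, as was the 1 gene whose rats did not overlap; among all probe sets 26 passed (0.111%) and 7.96% did not overlap. Lefty1 was chosen for its 3-MC level, so nothing is read from this count. The interaction passed for 0 of the 10 genes and 0 of all probe sets (0%) in limma, with 1032 probe sets (4.42%) and, of the 9 genes other than Lefty1, 1 (Bmp2) at an unadjusted p under 0.05. Lefty1 is left out there for the same reason. Nothing is read from Lefty1 in the counts against vehicle or E2 either, since the paper names it as regulated by 3-MC alone. The comparisons share their vehicle, E2 or 3-MC rats and are not independent of each other.

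The rest of the pathway was read from lists of its components. Between E2 and vehicle, 1.58% of all probe sets passed and 11.7% had an unadjusted p under 0.05 in limma. Of 24 other ligands of the family, 20 had a probe set and 13 passed the filter on signal. Of these 13, 0 passed in any of the 6 comparisons, and 4 had an unadjusted p under 0.05 in limma between E2 and vehicle. The log2 changes of the 13 with E2 ran from -0.77 to 0.13 (median -0.11). Of 18 receptors and co-receptors 14 were tested and 0 passed in any comparison, with changes of -0.45 to 0.61 with E2 (median 0.02). With E2, 4 of the 14 had an unadjusted limma p under 0.05, against the same 11.7% of all probe sets. Bmpr1b, a type I BMP receptor chosen here after its values were seen, read 108, 119 and 106 with vehicle, 196, 193 and 148 with E2, 124, 97.3 and 81.1 with 3-MC, and 124, 92.5 and 137 with E2+3-MC. Its E2 rats lay above the other 9, as for Bmp7, with a difference from vehicle of 0.61 (adjusted p = 0.111).

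Of 20 tested extracellular antagonists and activators, 1 passed with E2, against 1.58% of all probe sets, and 0 in the other comparisons. Furin, the proprotein convertase that cleaves the precursors of many family ligands, rose by 0.77 with E2 (SE 0.16, adjusted p = 0.0255). It read 219, 222 and 253 with vehicle, 396, 467 and 361 with E2, 231, 224 and 290 with 3-MC and 304, 268 and 381 with E2+3-MC. Both groups given E2 lay above the vehicle rats, and the E2+3-MC rats overlapped with both the E2 and the 3-MC rats. The list's median change with E2 was -0.03.

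Of 13 tested SMADs and their regulators, 0 passed in any comparison, and their changes with E2 ran from -0.42 to 0.54 (median 0.01). An unadjusted limma p under 0.05 was seen with E2 in 2 of the 13, near the 11.7% of all probe sets. Of 15 tested transcriptional targets, 1 passed with E2, against 1.58% of all probe sets, and 0 in the other comparisons. Msx2, a homeobox gene induced by BMPs, rose by 0.73 with E2 (SE 0.16, adjusted p = 0.0358). It read 46.9, 40.7 and 33.5 with vehicle, 69.1, 79.7 and 83.8 with E2, 42.8, 36.0 and 56.6 with 3-MC, and 85.0, 59.1 and 63.8 with E2+3-MC. All 6 rats given E2 lay above all 6 that were not, while Bmp2 was lowest in the E2 rats. Ctgf, a matrix protein gene induced by TGF-beta and chosen here after its values were seen, read 397, 483 and 357 with vehicle and 260, 215 and 235 with E2, a difference of -0.76 that did not pass (limma adjusted p = 0.0590). It read 253, 272 and 423 with 3-MC and 270, 269 and 327 with E2+3-MC. Postn, of the same list and also chosen after its values were seen, went the other way. It read 2317, 2095 and 2394 with vehicle, 3369, 3444 and 3906 with E2, 2429, 2902 and 2100 with 3-MC, and 2721, 2129 and 3428 with E2+3-MC. The list's median change with E2 was -0.14, and 6 of the 15 genes had a positive change. An unadjusted limma p under 0.05 was seen in 7 of the 15, against 11.7% of all probe sets.

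**Figure D4:**
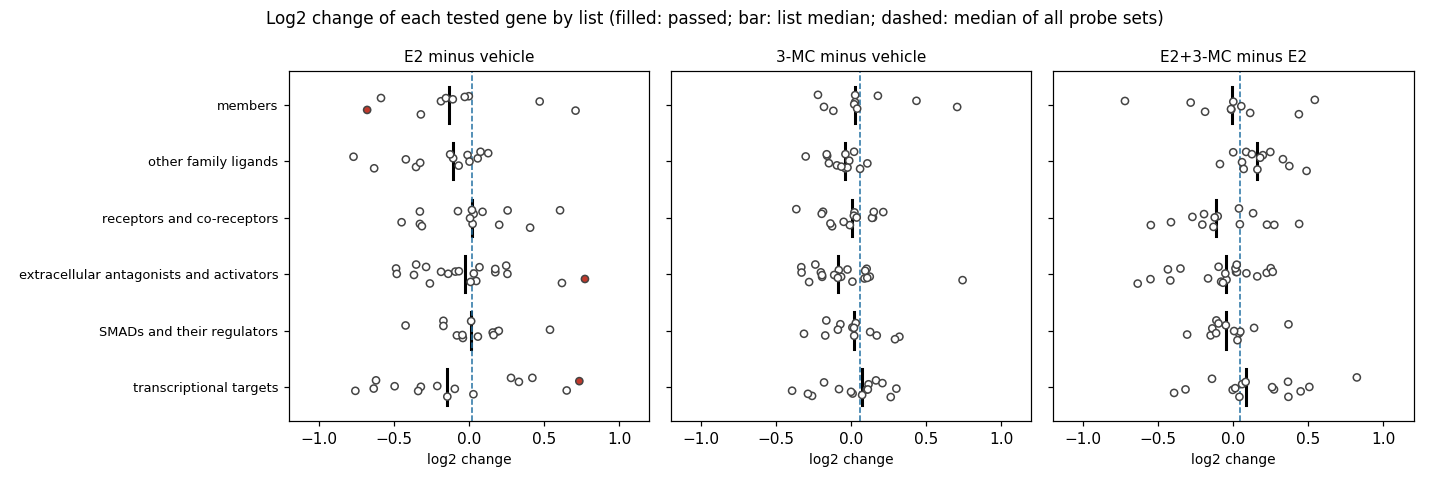
Log2 change (horizontal axis) of each tested gene in the set of 10 (members) and in 5 lists of other pathway genes (vertical axis) for 3 comparisons; filled points passed, black bars are list medians and the dashed line is the median of all 23371 probe sets. Bmp2, Furin and Msx2 passed with E2, and no gene of these lists passed in the other 2 panels.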

How the data were processed

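RNA from whole mammary glands was hybridized to Affymetrix Rat Gene 1.0 ST arrays. The deposited values are intensities that the authors made with PLIER in Expression Console after quantile normalization; they are linear, not centred on controls, and no genome build is named for them. Gene symbols came from the platform annotation (15310 probe sets carry 1 symbol, 323 several and 13581 none). The 10 genes, all lists and the tests were chosen with earlier results of these data known. Log2(intensity + 16) was fitted in limma 3.58.1 (R 4.3.3) in 1 model of the 4 groups, after removal of the lowest 20% of probe sets by mean; p-values were Benjamini-Hochberg adjusted over the 23371 that remained, and a call needed adjusted p under 0.05 and a change of 1.5-fold. Named beyond the 10 genes were pathway genes that passed, the 5 genes most like Lefty1, treatment checks, and genes marked as chosen after their values were seen. Adgre1 and Emr1, names of 1 probe set, were counted once. The fit was checked on simulated data. Median array intensity was 85.7 to 110, and arrays correlated at 0.952 to 0.988. Deviations of same-numbered rats correlated for vehicle and 3-MC (0.341, 0.442 and 0.564), where the numbers were taken as pairs from the values alone; nothing in the labels ties the numbers to a litter or day. Alternatives were another pseudocount, no filter, renewed quantile normalization, median centring, replicate blocks, 2 groups alone, the t-test that the methods name, the adjusted p alone, and each rat left out.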

Additional observations from a re-analysis of the deposited data

How the results depend on the processing

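Changes of filter, pseudocount, normalization and centring, the adjusted p alone and a replicate block over the 12 arrays left the number of the 10 genes that passed as it was in all 6 comparisons, and no called value of the 10 genes changed sign in any alternative; other named genes were not rerun. With E2 against vehicle 1 gene passed, Bmp2, against 0 with the t-test of the methods and 0 with the replicate block within those 2 groups (adjusted p = 0.0734); leaving out 1 rat gave 0 to 1. With E2+3-MC against 3-MC the count was 1, Lefty1, a gene chosen on its 3-MC level, so that the count is a description and no test of it; it was 0 with the 2 groups alone, 0 with the t-test of the methods and 0 with the replicate block within them; leaving out 1 rat gave 0 to 1, with 0 without 3-MC rat 1, E2+3-MC rat 2 or E2+3-MC rat 3. With E2+3-MC against E2, 0 passed, and 1 (Bmp7, adjusted p = 0.0281) with the replicate block within those groups, where the rats share only a number (correlations of deviations 0.130, 0.081 and 0.137). The block changed no other call. The block within 2 groups and the fit without 3-MC rat 2 and E2+3-MC rat 1 were chosen after seeing the data. The cause of these changes was not tested.

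Over all probe sets, E2 against vehicle gave 370 calls, 7 with the t-test, 207 with the block within the 2 groups, and fewer when certain rats were left out: leaving out vehicle rat 1 gave 172 and vehicle rat 2 gave 225, while omitting E2 rat 1, 2 or 3 left 116, 89 and 242. E2+3-MC against E2 gave 0 calls, 2 after renewed quantile normalization, 359 with the 2 groups alone, 697 with the block within them, 10 without E2 rat 3 and 1 without E2+3-MC rat 1. E2+3-MC against vehicle gave 38, 0 with the t-test, 21 with the block, 81 without vehicle rat 3 and 23 without E2+3-MC rat 1 or rat 3. E2+3-MC against 3-MC gave 26, 42 after renewed quantile normalization, 0 with the t-test, 16 with the block and 43 without E2+3-MC rat 2. Without 3-MC rat 2 and E2+3-MC rat 1, 3 passed with 3-MC against vehicle and 1 in the interaction, which also had 1 without vehicle rat 3. With 3 rats a group, signal near the lowest intensities (Lefty2, Cyp1a1) and spread within groups (Tgfb1) limit what these arrays can show.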

Other observations

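Skeletal muscle markers differed between rats of 1 group more than any other list fixed here: the median of 13 markers stood at 1.82, 2.24 and -3.91 in vehicle rats 1 to 3, -0.25, -2.77 and -1.15 in the E2 rats, 1.08, 1.70 and -3.78 in the 3-MC rats and -2.35, -1.99 and -3.47 in the E2+3-MC rats (log2 from the vehicle mean). In the vehicle and 3-MC groups rat 3 was the low one in both. Lymphocyte markers stood at -0.02, -0.26 and 0.13 with vehicle, -0.44, -0.28 and -0.16 with E2, 0.81, 0.05 and 0.23 with 3-MC and 0.22, 1.12 and 0.78 with E2+3-MC. With 3-MC against vehicle, 0 of 8 tested markers passed in limma, against 0% of all probe sets. An unadjusted limma p under 0.05 was seen there in 2 of the 8, against 4.24% of all probe sets. All 11 adipocyte markers were lower with E2 than with vehicle (median log2 change -0.45). Of these, 3 passed (Retn, Pparg and Lpl), against 67 of the 23371 probe sets that passed as lower. An unadjusted limma p under 0.05 was seen in 9 of the 11, against 11.7% of all probe sets.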
